A study of Mus musculus with 10 samples.

Results

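The lining of the liver's blood channels was followed here through 10 genes that mark liver sinusoidal endothelial cells: *Stab1*, *Stab2*, *Lyve1*, *Clec4g*, *Kdr*, *Pecam1*, *Fcgr2b*, *Oit3*, *Dnase1l3* and *Cdh5*. They were taken by symbol from a table of 15126 genes, and each of the 10 had a single row. The values described are those of 5 AAV8-Control libraries, made by poly-A RNA-seq from livers of *db/db* mice, which lack a working leptin receptor and become obese and diabetic. All 5 came from animals that were 10 weeks old and had carried adeno-associated virus 8 (AAV8) encoding eGFP, a fluorescent protein, for 5 weeks. The virus was given by tail vein, and the promoter that drove eGFP is not given in the sources used here. The labels number the libraries without naming an animal for each, so the spread given is that between these libraries. Where a liver is spoken of below, the liver material of a library is meant, which may or may not be a separate animal. No group is compared with another here, so no p-value is given.

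Sinusoidal endothelial cells form a wall with open pores and no continuous basement membrane between blood and hepatocytes. They clear waste from the blood through scavenger receptors, bind immune complexes through an Fc receptor, take up hyaluronan, and depend on vascular endothelial growth factor (VEGF) signals to keep their pores. In chronic liver disease these cells can lose that character and take on features of ordinary capillaries, with more CD34 and a basement membrane.

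The libraries held 19499795 to 35498596 reads, so that 1 read was worth 0.0282 to 0.0513 CPM, the unit of the table, in which each library's counts are scaled to one common total. The labels give both liver as the tissue and primary hepatocytes as the cell type, whereas the study describes whole livers. All 10 endothelial genes were detected in all 5 libraries, with 107 to 2203 reads per gene and library. The 11 Kupffer cell and macrophage markers were also present, at a summed 198 to 405 CPM over the libraries, and so were the 9 stellate cell and fibroblast markers, at 362 to 468 CPM. No library repeated another (lowest chi-square per degree of freedom over genes 13.9).

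The bases before the start are shown first for 3 of the 10 genes, which differ in AGGAAG. These letters are a form of the core motif bound by factors of the ETS family that act in endothelium. Other forms of the core were not searched, so a sequence without AGGAAG may still hold another form. With or without AGGAAG, these 3 are among the 8 genes that shared their lowest and highest library, described further on. A link between the motif and that pattern was not tested. RefSeq promoter sequences were matched by symbol for 5 of the 10 genes (*Stab1*, *Stab2*, *Clec4g*, *Kdr* and *Fcgr2b*), and the 250 bases before each start were searched on both strands for AGGAAG. The motif occurred in 3 of the 5 genes and in 29.48% of 32851 promoters of the same length, and the GATA-type motif GATAA occurred in 0 of 5 and in 22.58% of promoters. The sequences read 5′ to 3′ on the gene's strand in the GRCm38.p6 build, with AGGAAG or its reverse complement in capitals, from chr8:3720652-3720901 for *Clec4g*, chr14:31168642-31168891 for *Stab1* and chr5:75978459-75978705 for *Kdr*, all on the minus strand and outside the annotated exons of their gene:
Clec4g: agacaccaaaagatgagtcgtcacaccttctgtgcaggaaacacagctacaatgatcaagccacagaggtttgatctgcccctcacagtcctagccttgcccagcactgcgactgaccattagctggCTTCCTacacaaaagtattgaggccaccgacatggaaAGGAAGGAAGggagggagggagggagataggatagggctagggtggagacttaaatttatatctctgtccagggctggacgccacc
Stab1: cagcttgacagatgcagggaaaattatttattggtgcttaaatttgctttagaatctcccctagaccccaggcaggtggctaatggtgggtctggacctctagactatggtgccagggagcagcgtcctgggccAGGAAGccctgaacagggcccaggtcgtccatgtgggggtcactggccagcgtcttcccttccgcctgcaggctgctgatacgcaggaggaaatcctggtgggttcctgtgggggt
Kdr: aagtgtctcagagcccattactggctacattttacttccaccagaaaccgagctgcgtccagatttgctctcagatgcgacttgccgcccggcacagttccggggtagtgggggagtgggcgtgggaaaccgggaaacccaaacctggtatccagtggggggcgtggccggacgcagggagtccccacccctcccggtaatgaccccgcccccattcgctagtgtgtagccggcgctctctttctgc
*Clec4g* held 3 matches, at -123, -86 and -82 from its start, of which the last 2 overlap each other, *Stab1* held 1 at -116, and *Kdr* held 0. *Stab2* held 1 at -40, within an exon of an annotated transcript, and is not printed. The RefSeq start was also a transcript start in GENCODE for *Clec4g* and *Stab1*, but not for *Stab2*, *Kdr* or *Fcgr2b*. For *Kdr* 247 of the 250 bases lay outside the gene's exons and are printed, and for *Fcgr2b* the searched bases lay within the annotated gene, with a longest stretch of 63 bases outside its exons, so that this window may not be its promoter. A match describes the letters alone, and nothing about a factor was measured.

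Among these control livers the endothelial genes spread more widely than most genes. The level of all 10 genes was lowest in control library 4, which was the lowest for 31.7% of the 11041 genes with a mean of 1 CPM or more. The margin may be within counting error for *Clec4g* (27.5 against 28.8 CPM in library 3) and *Fcgr2b* (21.8 against 23.2 CPM in library 5). The level of 8 of the 10, all but *Lyve1* and *Oit3*, was highest in control library 1, which was the highest for 37.8% of those genes. Both held for 8 of the 10 endothelial genes and for 16.5% of all genes. In whole liver, fewer endothelial cells and less RNA per endothelial cell cannot be told apart.

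**Figure D1:**
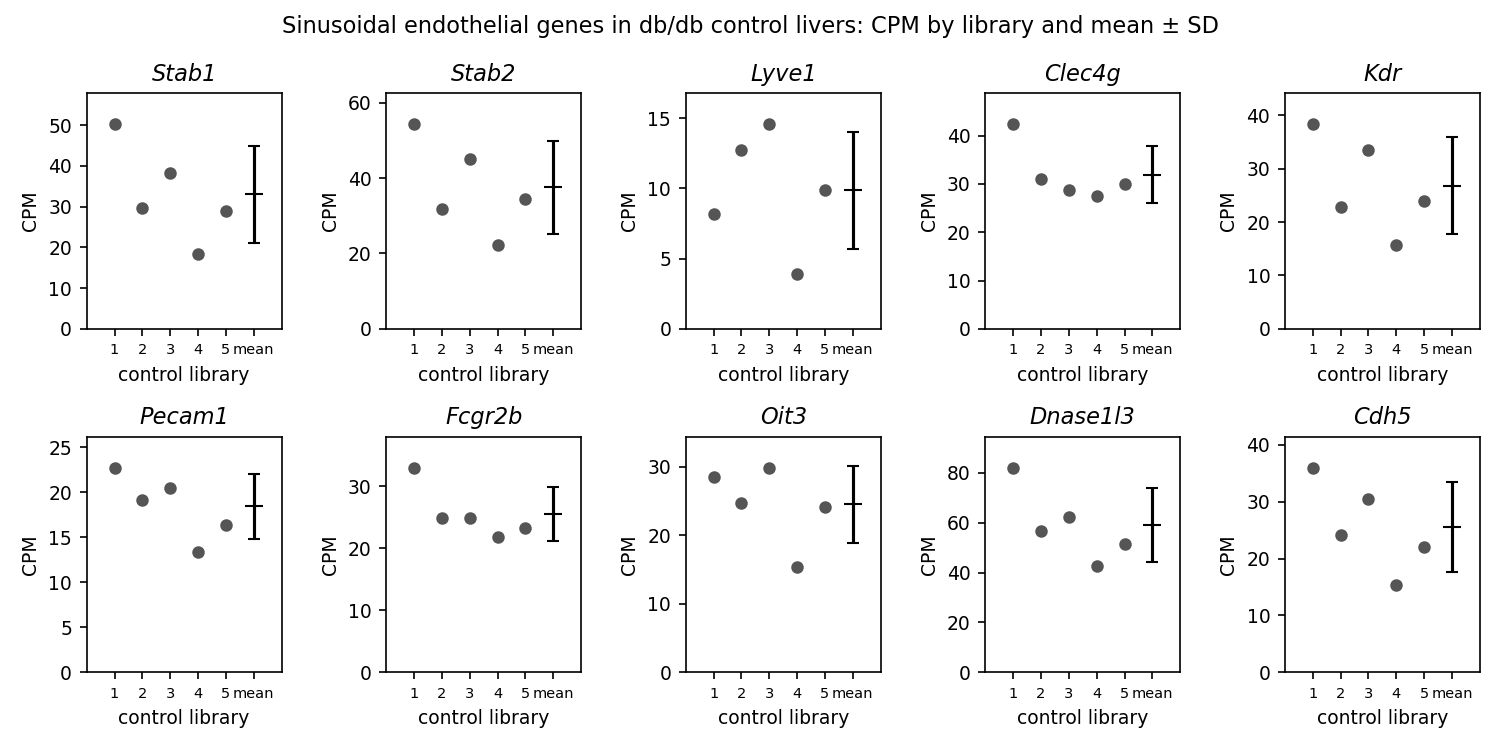
CPM of each gene in each of the 5 control libraries (grey points), with the mean ± SD of the 5 libraries to the right in black. In every panel the point of library 4 is the lowest, from 3.90 CPM for *Lyve1* to 42.6 CPM for *Dnase1l3*.

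Among the receptors that clear waste from blood, *Stab2* (chr10:86841198-87008025, minus strand; ENSMUSG00000035459) encodes stabilin-2, the main endocytic receptor for hyaluronan on these cells. Its level was 54.3, 31.7, 44.96, 22.3 and 34.5 CPM in control libraries 1 to 5. Libraries 1 and 3 were high, 2 and 5 lay together in the middle, and 4 stood below them. The mean was 37.6 ± 12.4 CPM (SD, n = 5), and the highest library held 2.44 times the level of the lowest.

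*Stab1* (chr14:31139013-31168641, minus strand; ENSMUSG00000042286) encodes stabilin-1, which takes up modified lipoproteins and matrix fragments. It was measured at 50.2, 29.7, 38.1, 18.3 and 29.0 CPM in libraries 1 to 5, a mean of 33.1 ± 11.9 CPM (SD, n = 5). The livers followed the same order as for *Stab2* except that libraries 2 and 5 changed places. Between highest and lowest the ratio was 2.74, and library 4 stood at -50.2% against the mean of the remaining 4.

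*Lyve1* (chr7:110850607-110863239, minus strand; ENSMUSG00000030787) encodes a hyaluronan receptor shared with lymphatic endothelium, and it was the least abundant of the set in CPM. The 5 libraries held 8.15, 12.8, 14.6, 3.90 and 9.91 CPM. Library 1, the highest for most of the set, was the second lowest here, and library 3 was the highest. The mean was 9.86 ± 4.15 CPM (SD, n = 5), and the values spread 3.73-fold from lowest to highest, the widest of the 10 genes, on 107 to 517 reads per library. Library 4 stood at -65.6% against the mean of the others, the largest such shortfall of the set.

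*Clec4g* (chr8:3707064-3720651, minus strand; ENSMUSG00000074491) encodes LSECtin, a lectin of sinusoidal endothelium that binds glycans on pathogens and T cells. Its level was 42.4, 31.0, 28.8, 27.5 and 30.0 CPM, a mean of 31.9 ± 5.97 CPM (SD, n = 5). Library 1 stood apart above the other 4, which lay close together, so that library 4 was the lowest by a small margin (-16.7% against the mean of the others).

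*Fcgr2b* (chr1:170958617-170976547, minus strand; ENSMUSG00000026656) encodes the inhibitory Fc gamma receptor that removes small immune complexes from blood. Its level was 33.0, 24.8, 25.0, 21.8 and 23.2 CPM, a mean of 25.6 ± 4.35 CPM (SD, n = 5). As for *Clec4g*, library 1 stood apart and the other 4 lay close together, and the ratio of highest to lowest was 1.51, the narrowest of the set. Of the distinct 50-base stretches of *Fcgr2b* transcripts 4.38% also occurred in transcripts of other genes, 2.92% in *Fcgr3*, and as only uniquely aligned reads were counted, reads from these stretches were left out and its level may be slightly low.

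*Kdr* (chr5:75932827-75978458, minus strand; ENSMUSG00000062960) encodes VEGF receptor 2, the main receptor through which VEGF acts on endothelium. Its level was 38.4, 22.9, 33.4, 15.6 and 23.9 CPM in libraries 1 to 5, a mean of 26.9 ± 9.02 CPM (SD, n = 5). The livers stood in the same order as for *Stab2*, with a ratio of 2.45 between highest and lowest.

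*Cdh5* (chr8:104101625-104144511, plus strand; ENSMUSG00000031871) encodes VE-cadherin, the cadherin of endothelial junctions. It was measured at 36.0, 24.1, 30.5, 15.3 and 22.1 CPM, a mean of 25.6 ± 7.94 CPM (SD, n = 5). Here the livers stood in the order seen for *Stab1*. *Pecam1* (chr11:106654217-106750628, minus strand; ENSMUSG00000020717) encodes CD31, an adhesion molecule of endothelial junctions that platelets and leukocytes also carry. Its level was 22.7, 19.1, 20.5, 13.4 and 16.3 CPM, a mean of 18.4 ± 3.63 CPM (SD, n = 5). The order of the livers was again that of *Stab1*, over a narrower 1.69-fold span.

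*Dnase1l3* (chr14:7964533-7994573, minus strand; ENSMUSG00000025279) encodes a secreted nuclease that degrades DNA in microparticles and chromatin, and it was the most abundant of the set in CPM. Its level was 82.0, 56.5, 62.1, 42.6 and 51.6 CPM, a mean of 59.0 ± 14.7 CPM (SD, n = 5). Library 1 stood well above library 3, the next in order. *Oit3* (chr10:59422958-59441778, minus strand; ENSMUSG00000009654) encodes a secreted zona pellucida domain protein. Its level was 28.4, 24.7, 29.8, 15.4 and 24.2 CPM, a mean of 24.5 ± 5.63 CPM (SD, n = 5). Libraries 1 and 3 differed by little and library 4 stood below the other 4, at -42.5% against their mean.

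Per kilobase of annotated exon, *Clec4g* at 12.97 ± 2.43 CPM per kb and *Dnase1l3* at 11.4 ± 2.86 CPM per kb stood highest on average (SD, n = 5), followed by *Oit3* at 8.78 ± 2.02 and *Cdh5* at 6.09 ± 1.89 CPM per kb. *Fcgr2b* at 4.42 ± 0.752 and *Stab2* at 4.29 ± 1.41 CPM per kb came next, and *Lyve1*, *Stab1*, *Kdr* and *Pecam1* lay between 3.38 and 2.96 CPM per kb. The step from *Oit3* to *Cdh5*, at 1.33 times the larger SD, was the one step between neighbours that exceeded the spread between libraries. All genes were read in the same libraries, which moved several of them together, so neighbours were also compared within each library. *Dnase1l3* exceeded *Oit3*, *Oit3* exceeded *Cdh5* and *Stab1* exceeded *Kdr* in 5 of 5 libraries. *Clec4g* exceeded *Dnase1l3*, *Cdh5* exceeded *Fcgr2b* and *Stab2* exceeded *Lyve1* in 4 of 5, and the order of the remaining neighbours held in 3 of 5. The lengths count all annotated exons of a gene, used or not, and set this order in part.

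**Figure D2:**
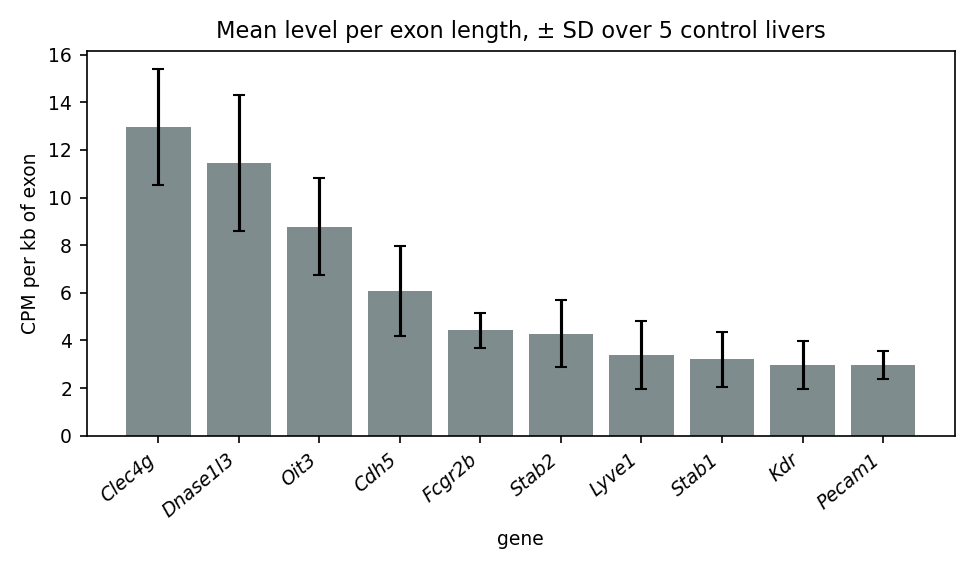
Mean CPM per kilobase of exon for each gene (bars, from 0), with the SD over the 5 control libraries as error bars. *Clec4g*, *Dnase1l3* and *Oit3* stand highest, and from *Fcgr2b* to *Pecam1* each error bar overlaps that of the next gene.

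The coefficient of variation, the SD as a percentage of the mean, ran from 17.0% for *Fcgr2b* to 42.1% for *Lyve1*. Counting of reads alone would give 2.63% for *Dnase1l3*, the deepest gene, to 6.32% for *Lyve1*, the shallowest. Their median was 28.0%, beside 10.6% over all 11041 genes, and all 10 lay above the latter. Some other cell lists spread as widely: the median was 29.0% for the 11 Kupffer and macrophage markers and 32.6% for the 4 bile duct markers tested, beside 12.1% for the 9 stellate and 15.9% for the 7 hepatocyte markers. *Lyve1* varied more than 98.1% of all genes, *Stab1* more than 96.6%, *Kdr* more than 95.7%, *Stab2* more than 95.3% and *Cdh5* more than 94.1%, whereas *Clec4g* varied more than 80.1% and *Fcgr2b* more than 76.3%. The median ratio of highest to lowest library was 2.15 for the 10 genes and 1.30 for all genes.

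Summed over the 10 genes, the livers held 396, 277, 328, 196 and 265 CPM in libraries 1 to 5. *Alb*, the most abundant hepatocyte marker, was highest in library 4 at 111611 CPM and lowest in library 1 at 80000 CPM. The other 6 hepatocyte markers did not have both extremes in these libraries: *Ttr*, *Cps1* and *Pck1* were also highest in library 4, *Apoa1* was lowest in library 1, *Hnf4a* was highest in library 1, and *Tat* had neither extreme in them. Their part in the endothelial values was not tested. With DESeq2 size factors, which do not rest on the library total, library 4 was the lowest for all 10 endothelial genes and for 23.8% of all genes, and library 1 the highest for 8 of the 10 and for 23.6% of all genes. The summed Kupffer markers, 242 CPM in library 4 and 309 CPM in library 1, were at neither end of their range of 198 to 405 CPM. The summed stellate markers were lowest in library 4, at 362 CPM, and stood at 411 CPM in library 1, below their highest of 468 CPM.

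**Figure D3:**
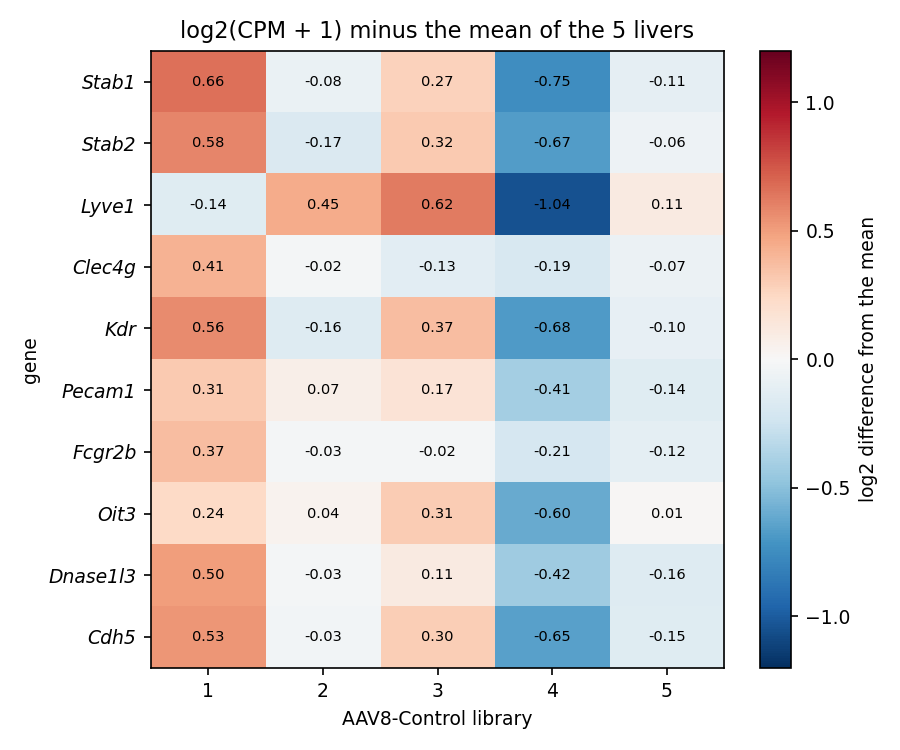
Each cell gives the log2(CPM + 1) of a gene in a control library minus that gene's mean over the 5 libraries (red above, blue below). The column of library 4 is blue in all 10 rows, from -0.19 for *Clec4g* to -1.04 for *Lyve1*, and *Lyve1* alone is below its mean in library 1, at -0.14.

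A ratio within a library compares genes with each other in the same liver. The log2 ratio of *Stab2* to *Pecam1*, both taken as CPM + 1, was 1.22, 0.702, 1.10, 0.691 and 1.03 in libraries 1 to 5, a mean of 0.949 ± 0.240 (SD, n = 5). Libraries 2 and 4 were lower than the others. *Pecam1* is not confined to endothelium, and *Ptprc*, the leukocyte gene CD45, was at 3.24 to 5.54 CPM, whose part in the ratio was not tested.

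The log2 ratio of *Lyve1* to *Cdh5*, on the same CPM + 1 scale, was -2.02, -0.869, -1.02, -1.73 and -1.08, a mean of -1.34 ± 0.501 (SD, n = 5). Libraries 1 and 4, the extremes of *Cdh5*, had the lowest ratios. *Cd34*, whose protein marks capillary-like endothelium, stood at 1.06 to 3.03 CPM. Other genes of the capillary and large-vessel list, named after their values were seen, were higher: *Plvap* at 55.6 ± 8.53, *Ltbp4* at 33.4 ± 10.5, *Ephb4* at 17.0 ± 3.72 and *Vwf* at 7.79 ± 2.24 CPM (SD, n = 5 each), so *Cd34* does not stand for that list. Its log2 ratio to *Stab2* on the CPM + 1 scale was -4.63, -3.02, -4.14, -3.31 and -4.11, a mean of -3.84 ± 0.660 (SD, n = 5), with libraries 2 and 4 highest. Because *Cd34* is so low, the added 1 CPM raises this ratio: without it the values were -5.46, -3.39, -4.81, -4.05 and -5.02, a mean of -4.54 ± 0.826 (SD, n = 5), with the same libraries highest.

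Beyond the 10 genes, 25 further sinusoidal endothelial genes were read in the same livers. Library 4 was the lowest for 19 of the 25 and library 1 the highest for 20, beside 31.7% and 37.8% of all genes, and both held for 16. Their median coefficient of variation was 21.4%. The 6 for which library 4 was not the lowest, named after their values were seen, were *Tie1*, *Maf*, *Bmp2*, *Plxnc1*, *Ctsl* and *Cd36*. *Ctsl*, encoding the protease cathepsin L that many cells make, was the most abundant of the list at 445 ± 25.7 CPM, and *Cd36*, a fatty acid transporter that hepatocytes also make, stood at 427 ± 21.9 CPM (SD, n = 5 each). Both varied little, by 5.78% and 5.13%.

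In VEGF signalling library 4 was the lowest for 6 of the 9 genes tested and library 1 the highest for 5, and both counts include *Kdr* and, from the 25 further genes, *Flt4*. For this and the following lists the same shares of all genes, 31.7% and 37.8%, stand beside the counts. The ligand *Vegfa*, the most abundant, was at 84.8 ± 11.3 CPM, and the ligand gene *Pgf* did not exceed 0.0967 CPM in any library. Of the 12 junction genes, which include *Cdh5* and *Pecam1*, library 4 was the lowest for 6 and library 1 the highest for 9. *Ctnnb1* (beta-catenin), which hepatocytes also express, was the most abundant of them, at 192 ± 12.7 CPM (SD, n = 5), and varied by 6.63%.

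Of the 10 endothelial signals to hepatocytes and stellate cells tested, library 4 was the lowest for 6 and library 1 the highest for 8. *Bmp2*, an inducer of hepcidin and also among the 25 further genes, was the most abundant of them at 9.57 to 14.8 CPM, and *Edn1* did not exceed 0.437 CPM. *Wnt2* and *Wnt9b*, Wnt ligands of the central vein region chosen after their values were seen, stood at 2.66 ± 1.13 and 1.80 ± 0.806 CPM (SD, n = 5 each), both highest in library 1. Of the 11 capillary and large-vessel genes tested library 4 was the lowest for 6 and library 1 the highest for 5, and *Plvap*, of the diaphragms of capillary pores, was the most abundant.

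Leukocyte adhesion genes of activated endothelium were low. *Vcam1*, the most abundant, was at 5.85 to 12.6 CPM, and *Sele* did not exceed 0.113 CPM in any library. Library 4 was the lowest for 1 of the 4 tested and library 1 the highest for 1, which was *Icam2* in both cases.

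Some gene families hold a member of the set beside genes of other cells or roles. Among the 6 Fc gamma receptor genes library 4 was the lowest for *Fcgr2b* and *Fcgrt* alone, and library 1 the highest for the same pair. *Fcgrt*, the neonatal Fc receptor, was the most abundant at 176 ± 6.98 CPM, while the other 4 genes were all lowest in library 5 and highest in library 2. For hyaluronan, the hyaluronidase gene *Hyal2* led at 45.8 ± 4.25 CPM, and the synthase gene *Has1* did not exceed 0.0513 CPM. Library 4 was the lowest for 3 of the 5 hyaluronan genes tested, *Hyal2* and the members *Lyve1* and *Stab2*. In the DNase families *Dnase1l3* was the most abundant, ahead of *Dnase2b* at 38.0 ± 1.83 CPM (SD, n = 5), which varied by 4.82% against 25.0% for *Dnase1l3*. Library 4 was the lowest for 2 of the 5 DNase genes tested and library 1 the highest for 1, *Dnase1l3* among both.

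Of the 11 Kupffer and macrophage markers library 4 was the lowest for 0 and library 1 the highest for 0. *Cd5l* led them at 60.8 ± 17.7 CPM. Of the 9 stellate markers library 4 was the lowest for 5 and library 1 the highest for 3, led by *Dcn* at 159 ± 19.2 CPM (SD, n = 5). The Kupffer list, whose median coefficient of variation of 29.0% was close to that of the endothelial genes, had its extremes in other libraries.

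Of the 4 bile duct markers tested library 4 was the lowest for 0 and library 1 the highest for 1, with *Sox9* at 4.06 ± 1.03 CPM and *Cldn7* at no more than 0.583 CPM. The 9 lymphocyte and neutrophil markers summed to 4.01 to 8.71 CPM, and all but *Ptprc* were under 1 CPM on average. Of the 5 platelet and erythroid genes tested library 4 was the lowest for 0 and library 1 the highest for 4, with *Hbb-bs* the most abundant at 140 ± 15.9 CPM and the platelet gene *Gp9* at no more than 0.145 CPM. The globin genes are near-identical copies, and reads that fit more than 1 copy were not counted, so their levels may be too low. Of the 7 hepatocyte markers library 4 was the lowest for 0 and library 1 the highest for 1, *Hnf4a*, and *Alb* was at 97164 ± 12997 CPM (SD, n = 5). Of the 3 lymphatic endothelial genes tested library 4 was the lowest for 2, *Flt4* and *Lyve1*, which belong also to other lists, and library 1 the highest for 2, *Flt4* and *Prox1*. *Prox1*, which hepatocytes also express, was at 88.2 ± 15.0 CPM (SD, n = 5).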

How the data were processed

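RNA-seq libraries of *db/db* mouse liver (5 AAV8-Control) were made by poly-A selection and read as single 50-base reads. The authors aligned them with STAR 2.0.4b to Ensembl release 76 (GRCm38.p2 per the labels), counted with Subread featureCounts 1.4.5 the reads that aligned to 1 place and fell unambiguously in 1 gene, and deposited CPM (counts scaled to one common library total); how CPM was computed and whether counting used strand are not given in the sources used here. The table had 15236 lines for 15126 genes, 110 of them repeats that were dropped. All values (100%) came out as whole reads within 0.01 reads. Library totals were 19499795 to 35498596 reads, so that 3 reads correspond to 0.0845 to 0.154 CPM, for counting error only. Some results are not reported here, so the other libraries of the series and the comparison planned with them, with its tests, are not analysed here.

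From the deposited CPM, the mean, SD, coefficient of variation, lowest and highest library of each gene were computed (Python 3.11.15, pandas 2.3.3) for the 11041 genes whose mean CPM over the 5 libraries reached 1. The computation was checked on simulated reads that held counting error alone, without the wider spread between libraries seen here. That check says nothing about how far this spread sets the lowest library. Per-gene counting error is 1 over the square root of the mean reads. Positions and exon lengths came from GENCODE M21 on GRCm38. Antisense genes overlap the exons of *Clec4g* (5.93%), *Fcgr2b* (2.68%) and *Stab2* (1.61%), and *Nt5dc2* those of *Stab1* (1.09%), so reads there may have been left out as ambiguous or, if counting used strand, kept apart. Alternatives were no filter on low values, DESeq2 1.42.0 size factors and edgeR 4.0.16 TMM scaling of the recovered reads, each library left out, and ratios without the added 1 CPM. *Madcam1*, *Has2*, *Pdpn* and *Ccl21a* are not analysed here.

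Besides the 10 genes, the text names from each list its most abundant gene and markers at or near 0, with *Cd34* for its ratio to *Stab2*. Every other gene, among them *Dnase2b*, *Icam2* and *Hnf4a*, was named after its values were seen. The genes and lists were chosen with earlier results of these data known, and the description within the control livers was chosen after seeing the data.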

Additional observations from a re-analysis of the deposited data

Results flagged for a closer look

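Of 13 sets of 5 values examined for a single library far from the rest (Dixon's 95% limit), 2 were past the limit, and chance alone passes about 1 set in 20. The sets share the same 5 libraries and some genes, so they are not independent and the 2 flags cannot be set against that rate. *Clec4g* stood at 42.4 CPM in AAV8-Control library 1, where the nearest library was at 31.0 CPM and the lowest at 27.5 CPM. *Fcgr2b* stood at 33.0 CPM in the same library, with the nearest at 25.0 CPM and the lowest at 21.8 CPM. The same library was the highest for 8 of the 10 endothelial genes.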

How the results depend on the processing

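The 8 alternatives and the ratios without an added CPM were chosen after seeing the data, and the alternatives planned for a comparison of groups were not run. No paired analysis was possible because all results come from 1 group, in which no library has a partner. Control library 4 was the lowest for all 10 endothelial genes with DESeq2 size factors and with TMM scaling. Dropping the filter or another library could not change that rank, so those settings do not test it. Control library 1 was the highest for 8 of the 10 with both scalings. Leaving out another library could only keep or raise that count, which was 9 of the 10 without library 3. The share of all genes lowest in library 4 was 31.7% with the deposited CPM, 23.8% with DESeq2 size factors and 23.2% with TMM. The median coefficient of variation of the 10 genes was 28.0%, and it was 25.2% with DESeq2 size factors, 24.97% with TMM, and 21.8% to 32.2% with 1 library left out, the lowest without library 4. Over all genes it lay at 9.34% to 12.4% in the 8 alternatives. No mean level of the 10 genes moved by 1 SD. Without the added CPM the mean log2 ratio of *Cd34* to *Stab2* moved from -3.84 to -4.54, by more than 1 SD, as the added CPM is large beside *Cd34*. With 5 libraries and 107 reads at the lowest, order differences between neighbouring livers, as for *Oit3* in libraries 1 and 3, may be within counting error. That holds also for *Clec4g* and *Fcgr2b* between library 4 and the next lowest.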
